A study of Saccharomyces cerevisiae with 12 samples.

Results

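The genes of cleavage factor I and of the torpedo termination pathway in yeast, 8 in all, were chosen by systematic name: PCF11, CLP1, RNA14 and RNA15 of cleavage factor IA, HRP1 of cleavage factor IB, and RAT1, RAI1 and RTT103 of the torpedo pathway. Every one of them was found among the 6650 genes measured. RNA polymerase II (Pol II) was immunoprecipitated from glucose-grown, formaldehyde-fixed Saccharomyces cerevisiae with the 4H8 antibody against its C-terminal domain, and unprecipitated chromatin of the same cultures was sequenced as input. All cells were of the w303 background and MAT alpha, carried ura3-1, trp1-delta, ade2-1 and his3-11,15 with a leu2 allele whose number is written differently in the Pcf11-DNL labels, and had the chromosomal PCF11 replaced by TRP1, so that their PCF11 came from a LEU2 plasmid and reads over PCF11 come from that copy. The WT plasmid carried V5-PCF11-MYC, the Pcf11-13 plasmid carried pcf11-13 with no tag named, and the Pcf11-DNL plasmid carried V5-pcf11-deltaN-linkMYC. The series text names an allele Pcf11-dQN, which was taken to be the same as Pcf11-DNL. Presence of the tags therefore differed between Pcf11-13 and the other strains as labelled. Each of the 3 genotypes had 2 Pol II and 2 input libraries, from 2 biological replicates per strain.

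In the cell, cleavage factor IA binds the nascent pre-mRNA and the polymerase and, with cleavage factor IB and the cleavage and polyadenylation factor, cuts the transcript at its 3' end. Rat1, a 5'-to-3' exonuclease activated by Rai1, then degrades the RNA that stays attached to the polymerase, and Rtt103, which binds the phosphorylated C-terminal domain, travels with them. Pcf11 binds the C-terminal domain through an N-terminal interaction domain, the part altered in pcf11-13, and PCF11 and HRP1 are themselves known as genes whose transcription can end early, before the full transcript is made.

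Mean coverage over genes ranged from 140.1 to 300.7 in the Pol II libraries and from 132.3 to 189.1 in the input libraries. Coverage was therefore scaled between libraries of an assay, and "scaled coverage" below is the deposited read coverage of a gene after that scaling. It was taken to be per base, since the input of the 7 members other than PCF11 lay near that of the median gene although their lengths ran from 891 to 3021 bp. The spread of log2 Pol II coverage over genes was narrow in WT replicate 1 (SD 0.949) and Pcf11-DNL replicate 2 (SD 0.946), against 1.1 to 1.206 in the other Pol II libraries. The labelled mating type was matched by the markers, since the alpha-specific genes MF(ALPHA)1 and STE3 had a Pol II to input ratio at least 2.4-fold above the median gene in every culture, while the a-specific genes MFA1, MFA2, STE2 and BAR1 lay at 0.517-fold or below.

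PCF11 itself (YDR228C, sacCer3 chromosome IV, 921926 to 923806, Crick strand) carried far more Pol II in Pcf11-13 than in either other strain. Its scaled Pol II coverage was 159.7 and 174.2 (WT replicates 1 and 2), 785.2 and 876.7 (Pcf11-13) and 163.4 and 163.8 (Pcf11-DNL). The Pcf11-13 libraries thus stood well above the other 4, while the Pcf11-DNL libraries lay inside the WT range. The WT mean was 167 ± 10.3 and the Pcf11-13 mean 831 ± 64.7 (SD, n = 2), so that the gene rose 4.95-fold (95% interval 4.26 to 5.76, log2 change 2.31, SE 0.10, adjusted p = 2.1e-05). Among 6642 genes this was the highest change, in a comparison where 1.13% of genes were called. In Pcf11-DNL the ratio to WT was 0.981 (95% interval 0.843 to 1.14, adjusted p = 1), an interval that leaves room for a rise of up to 1.14-fold. The Pcf11-DNL allele is named as a deletion, and coverage of PCF11 was not split into deleted and kept sequence. Values of PCF11 in Pcf11-DNL are therefore those of the whole gene, not of the kept sequence. Pcf11-DNL lay below Pcf11-13 by a log2 difference of -2.34 (SE 0.10, adjusted p = 1.9e-05), a comparison with 0.166% of genes called.

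**Figure D1:**
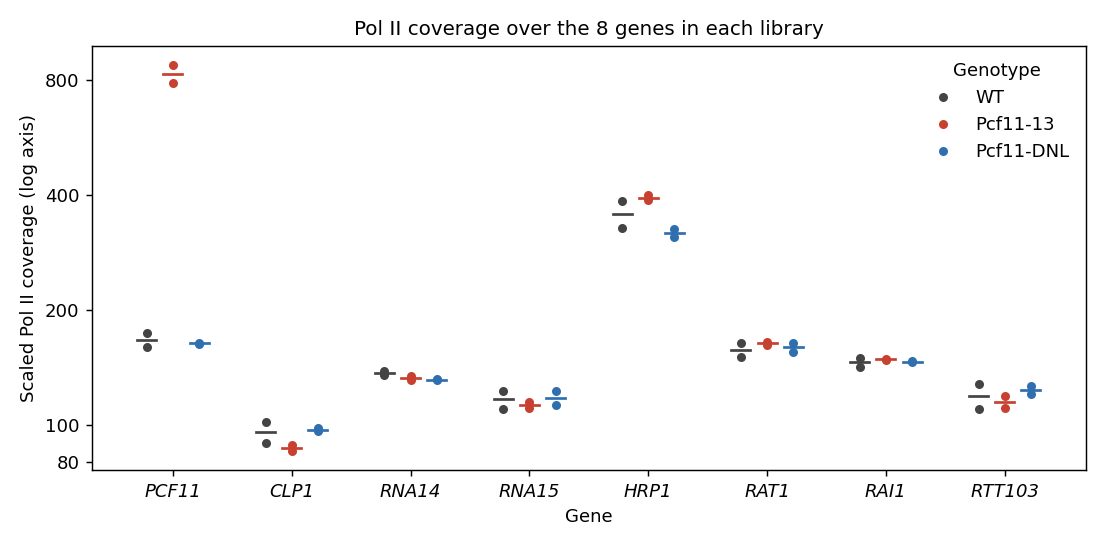
Scaled Pol II coverage (log axis) of the 8 genes in each of the 6 Pol II libraries, with points for the 2 replicates of a genotype and a bar for their mean. PCF11 in Pcf11-13, at 785.2 and 876.7, stands apart from its values in WT and Pcf11-DNL, while HRP1 is high in every library.

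The DNA of PCF11 was also more abundant in Pcf11-13. Relative to the median gene of each input library, PCF11 stood at 1.46 and 1.53 (WT), 2.24 and 2.14 (Pcf11-13) and 1.47 and 1.49 (Pcf11-DNL). The gene was thus above the median gene in every strain and highest in Pcf11-13, where its input rose 1.47-fold (95% interval 1.39 to 1.55, log2 0.56, SE 0.03, adjusted p = 2.3e-04). Only 0.256% of 6643 genes were called in that comparison of input. Without WT replicate 1 and Pcf11-DNL replicate 2 together, the input change was 0.52 and was not called (adjusted p = 0.058). In Pcf11-DNL the input of PCF11 was 0.992 times that of WT (95% interval 0.941 to 1.05, adjusted p = 1), and no gene was called (0% of 6643), with 232 genes at an unadjusted p under 0.05. As for Pol II, this is a value of the whole gene, so equal dose of the kept sequence was not tested.

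The input of both markers of the plasmid and deletion system rose in Pcf11-13. LEU2, the beta-isopropylmalate dehydrogenase gene that marks the plasmid and is also present in the chromosome as a leu2 allele, had an input of 2.95 and 3.04 times the median gene (WT), 4.11 and 4.03 (Pcf11-13) and 3.32 and 3.27 (Pcf11-DNL). It rose in Pcf11-13 by 0.44 on the log2 scale (SE 0.02, adjusted p = 1.0e-04), a call lost after quantile normalization (0.38, adjusted p = 0.16) and without WT replicate 1 and Pcf11-DNL replicate 2 together (0.42, adjusted p = 0.052). Both Pcf11-DNL libraries also lay above WT (log2 0.14, interval 0.09 to 0.19, unadjusted p = 4.1e-04), but this was not called (adjusted p = 1). TRP1, the tryptophan synthesis gene that replaced the chromosomal PCF11, was at 1.02 and 1.02 (WT), 1.58 and 1.55 (Pcf11-13) and 0.99 and 1.05 (Pcf11-DNL), with a rise of 0.62 in Pcf11-13 (SE 0.03, adjusted p = 9.6e-05). YDR008C, whose systematic name follows that of TRP1 (YDR007W), rose more, by 1.46 (SE 0.03, adjusted p = 8.5e-07). NTH1 (YDR001C) rose by 0.29 (SE 0.03, adjusted p = 0.0037). Whether the TRP1 rise lay at the PCF11 deletion or at the TRP1 locus itself was not tested. For the chromosomal genes beside PCF11 the input stayed near that of the median gene. SIR4, a silencing protein gene that ends 278 bp away, lay between 0.953 and 0.981 of the median gene in all 6 input libraries, and IVY1, on the other side at 978 bp, between 1.01 and 1.02.

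**Figure D2:**
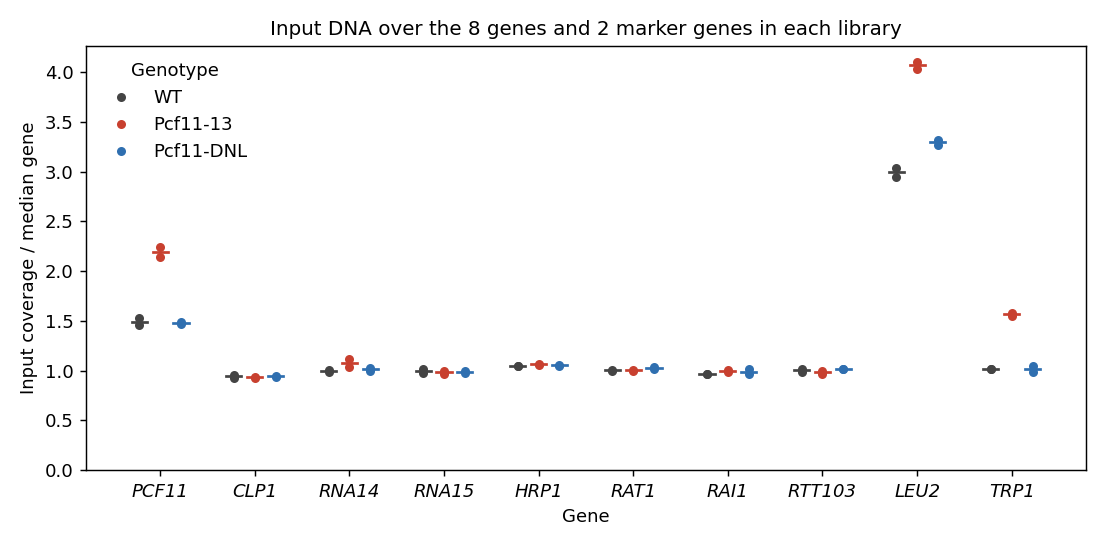
Input coverage divided by that of the median gene of the library, for the 8 genes and the markers LEU2 and TRP1, with points for the 2 input libraries of a genotype and a bar for their mean. PCF11, LEU2 and TRP1 are highest in Pcf11-13, and the 7 other members lie near 1 in all libraries.

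With input subtracted within each culture, PCF11 was still higher in Pcf11-13. The log2 ratio of Pol II to input, less the WT mean, was -0.03 and 0.03 (WT), 1.64 and 1.87 (Pcf11-13) and -0.01 and -0.02 (Pcf11-DNL). The rise was 3.37-fold (95% interval 2.93 to 3.88, log2 1.75, SE 0.09, adjusted p = 6.0e-06), second in size among 6641 genes, of which 2.09% were called, and Pcf11-DNL was below Pcf11-13 by a log2 difference of -1.77 (SE 0.09, adjusted p = 5.4e-06, 0.196% of genes called). LEU2, on the same plasmid, went the other way once its input was subtracted, with a log2 change of -0.52 in Pcf11-13 (SE 0.09, adjusted p = 0.014). Scaled Pol II over LEU2 was 312.8 and 359.5 (WT) against 331.5 and 303.9 (Pcf11-13), while its DNA was higher in Pcf11-13. That LEU2 call was lost without Pcf11-13 replicate 2 (-0.47, adjusted p = 0.12) and with all 12 libraries in 1 fit (adjusted p = 0.093). In Pcf11-DNL the ratio over PCF11 was 0.989 times that of WT (95% interval 0.859 to 1.14, adjusted p = 1; 0.0301% of genes called).

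Among the 3 partners of Pcf11 in cleavage factor IA, 0 were called in either mutant, where 1.13% (Pcf11-13) and 0.0151% (Pcf11-DNL) of all genes were, so that the count alone says little. CLP1 (YOR250C, chromosome XV, 800970 to 802307, Crick strand), which encodes the ATP-binding subunit that joins Pcf11 to the cleavage machinery, had a scaled Pol II coverage of 101.6 and 89.8 (WT), 88.7 and 85.5 (Pcf11-13) and 98.0 and 96.4 (Pcf11-DNL). Its Pcf11-13 libraries lay just below both WT libraries, with a log2 change of -0.13 (95% interval -0.32 to 0.06, adjusted p = 0.57), and its Pcf11-DNL libraries lay between them (0.03, interval -0.16 to 0.21). The Pcf11-13 value was -0.04 without WT replicate 1, -0.22 without WT replicate 2 and -0.03 without both narrow libraries. RNA14 (YMR061W, chromosome XIII, 392755 to 394788, Watson strand), whose product is the scaffold that holds Rna15, was at 135.4 and 138.5 (WT), 134.3 and 131.2 (Pcf11-13) and 132.0 and 130.8 (Pcf11-DNL). These 6 values are close, and although the mutant libraries of both strains lay under the WT libraries, the log2 changes were only -0.04 (interval -0.20 to 0.11) and -0.06 (interval -0.21 to 0.09). RNA15 (YGL044C, chromosome VII, 416146 to 417036, Crick strand), which encodes the subunit that recognises the RNA, was at 123.0 and 110.3 (WT), 110.6 and 114.6 (Pcf11-13) and 112.8 and 122.7 (Pcf11-DNL), so that all groups overlapped (log2 -0.05, interval -0.23 to 0.14, and 0.01, interval -0.17 to 0.20).

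RNA14 was the 1 other member whose input had an unadjusted p under 0.05 in Pcf11-13. Its input was 1.01 and 0.99 of the median gene (WT), 1.11 and 1.04 (Pcf11-13) and 1.00 and 1.03 (Pcf11-DNL), so that Pcf11-13 replicate 1 was the highest. The log2 input change in Pcf11-13 was 0.11 (SE 0.04, unadjusted p = 0.023, adjusted p = 0.80), and 5.78% of all genes had an unadjusted p under 0.05 there. It was 0.06 without Pcf11-13 replicate 1 and 0.16 without Pcf11-13 replicate 2. Its neighbours SAM37 and ARG7 had input changes of 0.10 and 0.08, not called either. With input subtracted, the Pol II change of RNA14 in Pcf11-13 was -0.15 (interval -0.32 to 0.01, adjusted p = 0.45).

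HRP1 (YOL123W, chromosome XV, 87844 to 89448, Watson strand) encodes the RNA-binding protein that is cleavage factor IB and was the member with the most Pol II in WT and Pcf11-DNL. Its scaled coverage was 328.3 and 386.5 (WT), 387.6 and 400.5 (Pcf11-13) and 325.6 and 310.2 (Pcf11-DNL). The Pcf11-13 libraries lay above, and the Pcf11-DNL libraries below, both WT libraries, although the 2 WT libraries differed from each other by more than either gap. Against WT the log2 change was 0.15 in Pcf11-13 (interval -0.11 to 0.40, adjusted p = 0.65) and -0.16 in Pcf11-DNL (interval -0.42 to 0.09, adjusted p = 1). These values turned on the WT library used, at 0.03 and -0.28 without WT replicate 1 and 0.26 and -0.05 without WT replicate 2. Between the mutants it was -0.31 (interval -0.56 to -0.06, unadjusted p = 0.021, adjusted p = 0.37), and 11.0% of genes had an unadjusted p under 0.05 in that comparison. With either WT library left out of the fit, the difference stayed at -0.31 and was called. Under the other alternatives it was not called. A fit without 1 WT library has only 1 left in that group. Calls over all genes also moved widely when 1 library was left out, so the HRP1 call there carries little weight. The lower HRP1 value of each of the 2 genotypes was in a library of narrow coverage range, WT replicate 1 and Pcf11-DNL replicate 2. The difference between the mutants was -0.28 (adjusted p = 0.068) without both of these libraries and -0.18 (adjusted p = 0.21) after quantile normalization, which gives all libraries the same range.

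Of the 3 torpedo genes 0 were called in either mutant, against 1.13% and 0.0151% of all genes. RAT1 (YOR048C, chromosome XV, 418630 to 421650, Crick strand) was at 150.3 and 163.9 (WT), 164.7 and 162.4 (Pcf11-13) and 164.0 and 155.5 (Pcf11-DNL), with log2 changes of 0.06 (interval -0.11 to 0.23) and 0.03 (interval -0.15 to 0.20). RAI1 (YGL246C, chromosome VII, 37617 to 38780, Crick strand) was at 142.3 and 149.4 (WT), 149.0 and 148.4 (Pcf11-13) and 146.7 and 146.1 (Pcf11-DNL), all mutant values lying inside the WT range (log2 0.03, interval -0.13 to 0.18, and 0.01, interval -0.15 to 0.16). RTT103 (YDR289C, chromosome IV, 1038280 to 1039509, Crick strand) was at 128.4 and 110.2 (WT), 110.6 and 119.3 (Pcf11-13) and 120.7 and 126.8 (Pcf11-DNL). Here too the WT libraries enclosed all others, and the log2 changes were -0.05 (interval -0.25 to 0.15) and 0.06 (interval -0.15 to 0.26).

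Counted over the group, 1 of 8 members was called in Pcf11-13, where 1.13% of genes were, and it was PCF11; the same 1 had an unadjusted p under 0.05, as did 12.6% of genes. In Pcf11-DNL 0 of 8 were called by limma (0.0151% of genes), and 0 had an unadjusted p under 0.05, where 1.61% of genes did. Without PCF11, the 7 other members had a median log2 Pol II change of -0.04 in Pcf11-13, against -0.02 for all genes, and 0.01 in Pcf11-DNL, against 0.00 for all genes. Their individual 95% intervals together reached from 0.801-fold to 1.32-fold in Pcf11-13 and from 0.75-fold to 1.2-fold in Pcf11-DNL, so that changes within these bounds were not resolved by 2 libraries a group. Groups stood apart without overlap for 4 of 8 members in Pcf11-13 (PCF11 and HRP1 higher, CLP1 and RNA14 lower), where 40.1% of all genes did so, and for 2 of 8 in Pcf11-DNL (HRP1 and RNA14, both lower), where 16.7% did. Both comparisons use the same 2 WT libraries. With input subtracted, the medians of the 7 were -0.03 and -0.01, and 0 of the 7 were called in any of the 3 comparisons of Pol II, of input or of their ratio.

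**Figure D3:**
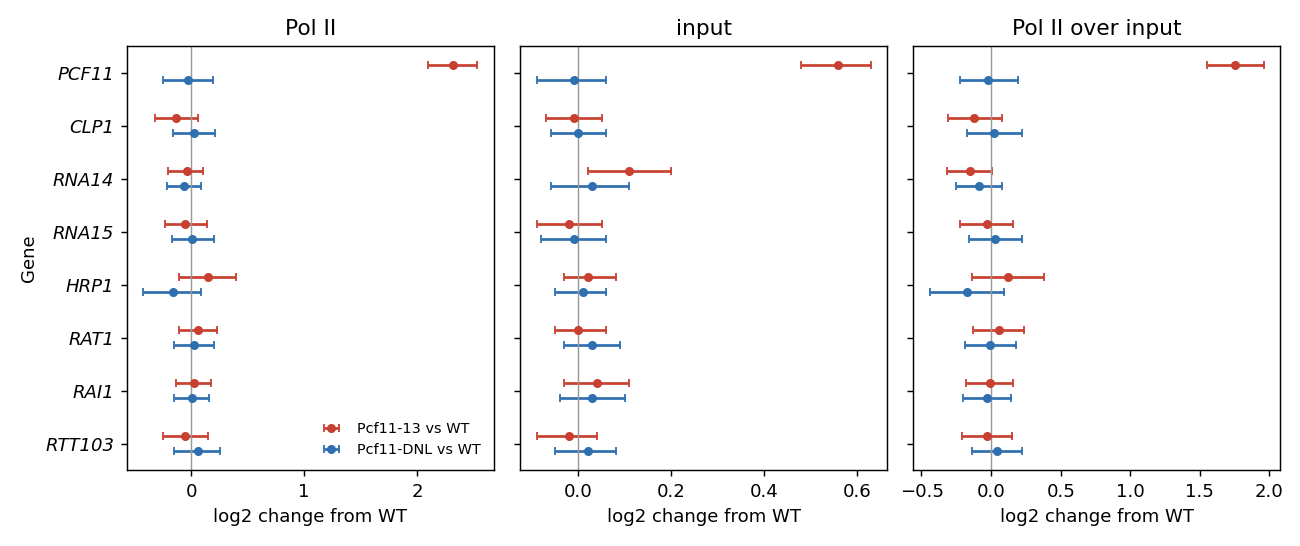
Log2 change from WT (points) with 95% intervals from the limma fit for the 8 genes, in Pol II coverage, input coverage and Pol II over input, each panel with its own horizontal scale. PCF11 in Pcf11-13 lies away from 0 in all 3 panels, and the intervals of the other points cross 0 except for the input of RNA14 in Pcf11-13.

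The members differed in how much Pol II they carried per unit of DNA. As log2 of Pol II over input relative to the median gene, HRP1 was highest in WT at 1.43 ± 0.15 (SD, n = 2), 2.7-fold above the median gene, with 538 of 6641 genes above it. RAT1 (0.32 ± 0.08) and RAI1 (0.26 ± 0.04) followed with overlapping WT values, then RNA14 (0.13 ± 0.03). RTT103 (-0.08 ± 0.13), RNA15 (-0.10 ± 0.16) and PCF11 (-0.16 ± 0.03) overlapped from each to the next, and CLP1 was lowest at -0.30 ± 0.16, or 0.81-fold. HRP1, RAI1, RNA14 and PCF11 did not overlap with the gene next below them. PCF11 ranked 7 and 5 of the 8 in the WT cultures, rose to 2 and 1 among the Pcf11-13 cultures and was 7 in each Pcf11-DNL culture. In Pcf11-13 its density was at 1.46 and 1.68, close to the 1.51 and 1.56 of HRP1, and its percentile among all genes was 91.6 and 93.3, against 38 and 42.6 in WT. CLP1 ranked 8 in all 6 cultures.

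**Figure D4:**
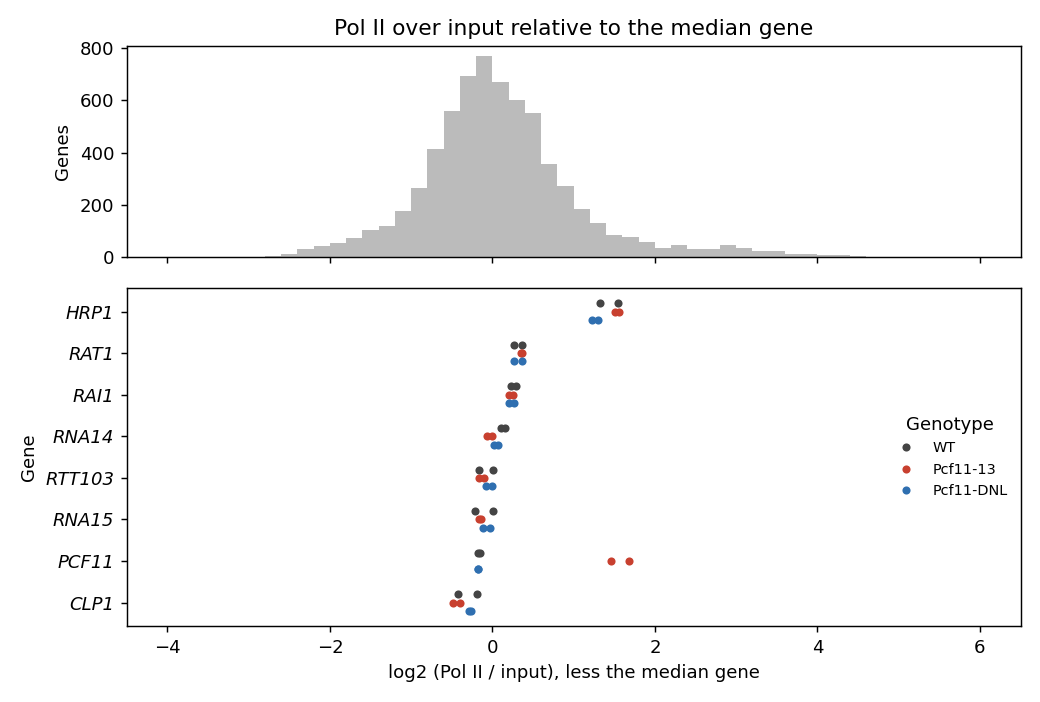
Top, histogram of log2 Pol II over input, less the median gene, for 6641 genes (mean of the 2 WT cultures). Below, the same measure for each of the 8 genes, with points for the 2 cultures of each genotype; the PCF11 points of Pcf11-13, at 1.46 and 1.68, reach those of HRP1, and the other genes keep near their WT values.

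Pol II was also read over the genes that flank the 8 members. These values cover each neighbour's own gene, without strand. They therefore cannot separate Pol II running past a member's end from Pol II transcribing the neighbour. Neighbours were sought only among measured genes that were matched to the RefSeq gene table, so an unmatched gene may lie nearer. Of 16 nearest neighbours, 8 on the 3' side and 8 on the 5' side, 1 was called in Pcf11-13, against 1.13% of all genes. It was ARG7 of arginine synthesis, which converges on RNA14 from 265 bp beyond its 3' end. Its scaled Pol II coverage was 120.5 and 110.2 (WT), 175.7 and 161.0 (Pcf11-13) and 135.2 and 140.7 (Pcf11-DNL), so that both mutants lay above WT. The log2 change was 0.54 in Pcf11-13 (SE 0.08, adjusted p = 0.019) and 0.26 in Pcf11-DNL (SE 0.08, adjusted p = 1), and with input subtracted it was 0.46 in Pcf11-13 (SE 0.08, adjusted p = 0.017). The Pol II call was lost without Pcf11-13 replicate 1 (0.48, adjusted p = 0.26), without Pcf11-13 replicate 2 (0.61, adjusted p = 0.087) and with no filter on low coverage (0.54, adjusted p = 0.08). The Pcf11-DNL change in Pol II was 0.32 without WT replicate 1 and 0.19 without WT replicate 2. These fits leave 1 WT library, so no call is given for them.

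Beside PCF11 itself neither neighbour was called. SIR4, which converges on PCF11, had a scaled Pol II coverage of 92.2 and 84.8 (WT) against 83.7 and 90.4 (Pcf11-13) (log2 -0.02, SE 0.08, adjusted p = 0.94), and the divergent IVY1 had 129.1 and 128.9 (WT) against 122.3 and 120.9 (Pcf11-13) (-0.08, SE 0.07, adjusted p = 0.65). Both genes are beside the chromosomal site of PCF11, where TRP1 now lies, and what flanks PCF11 on the plasmid is not given in the labels. For the 8 neighbours on the 3' side the median log2 change was -0.01, and for the 8 on the 5' side it was -0.06, with -0.02 for all genes. In Pcf11-DNL 0 of the 16 were called, where 0.0151% of all genes were, and the values ran from -0.08 to 0.26.

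**Figure D5:**
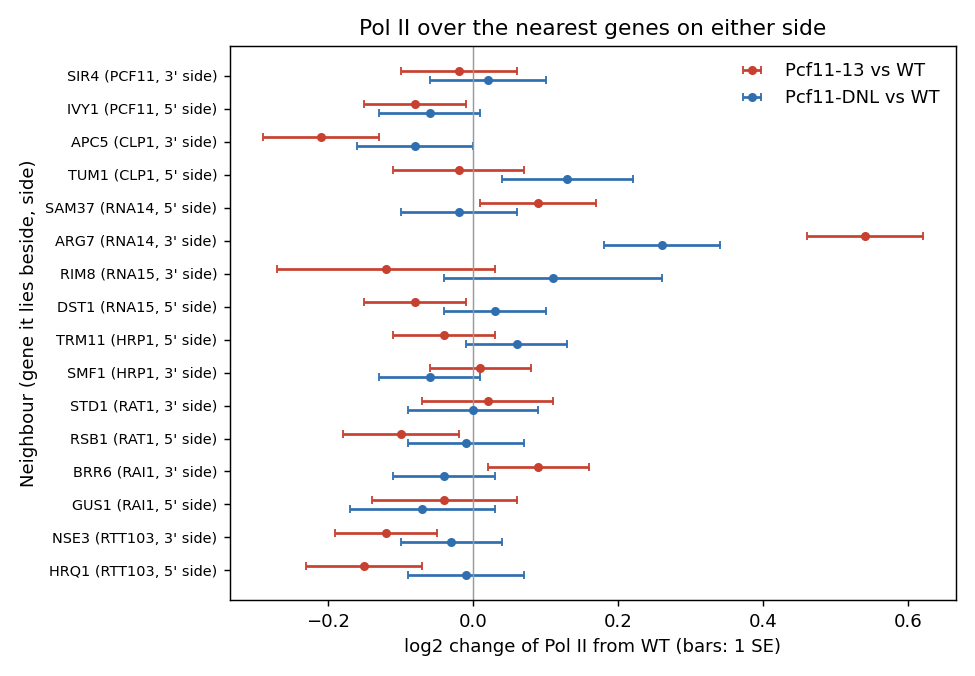
Log2 change of Pol II from WT over the nearest gene on each side of the 8 members, with bars of 1 SE; the gene each neighbour lies beside and its side are in parentheses. ARG7, past the 3' end of RNA14, lies at 0.54 in Pcf11-13 and 0.26 in Pcf11-DNL, and the other neighbours lie between -0.21 and 0.13.

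Partner complexes of the same pathway were counted in the same way. Of 15 genes of the cleavage and polyadenylation factor, 1 was called higher and 0 lower in Pcf11-13 (median log2 change -0.03), and 0 in Pcf11-DNL (median -0.01), where 1.13% and 0.0151% of all genes were called. The called gene was REF2, whose product joins the phosphatase part of that complex and acts in snoRNA 3' end formation, at 0.47 (SE 0.08, adjusted p = 0.029) with an input change of -0.01. This change was 0.55 without Pcf11-13 replicate 1 and 0.40 without Pcf11-13 replicate 2, and was not called in either fit. With no filter on low coverage it was not called either (adjusted p = 0.088). In Pcf11-DNL, REF2 was at 0.26 (interval 0.08 to 0.43) and was not called. Of 10 genes of the Nrd1-Nab3-Sen1 pathway and of enzymes and factors that act on or with the C-terminal domain, 0 were called in either mutant, against the same shares of all genes, with medians of 0.05 and -0.01 and extremes in Pcf11-13 of -0.17 at CTK1, a kinase of that domain, and 0.42 at NRD1, which encodes an RNA-binding termination factor.

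MPE1, which encodes a subunit of the cleavage and polyadenylation factor, differed in its DNA instead. Its input was 1.41 and 1.43 of the median gene (WT), 1.03 and 1.05 (Pcf11-13) and 1.44 and 1.45 (Pcf11-DNL). WT and Pcf11-DNL thus had the higher level, and Pcf11-13 a level near the median gene (log2 -0.44, SE 0.02, adjusted p = 1.0e-04, but -0.45 and 0.051 without WT replicate 1 and Pcf11-DNL replicate 2 together). Scaled Pol II over MPE1 was 164.2 and 189.5 (WT) against 157.4 and 158.3 (Pcf11-13) (-0.16, SE 0.08, adjusted p = 0.50). TOA2 (YKL058W) and FBA1 (YKL060C), whose systematic names adjoin that of MPE1 (YKL059C), were also called lower in input (log2 -0.75 and -0.43). They were among the 17 genes called for input in Pcf11-13, so the difference was not particular to MPE1. The input of Pcf11-13 thus differed at genes other than PCF11 too. An effect of the pcf11-13 allele and of other differences between these strains cannot be told apart in any value given for Pcf11-13.

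The genes whose pattern over the 6 cultures was most like that of PCF11, by the root mean square difference of log2 Pol II over input less its WT mean, were PAM16 of mitochondrial import (0.414), HIS4 of histidine synthesis (0.464), the vacuolar proton pump gene VMA9 (0.469), URA2 of pyrimidine synthesis (0.539) and YDR042C (0.559). Even the nearest was not close. PAM16 stood at 1.46 and 1.5 in Pcf11-13 but also at 0.64 and 0.63 in Pcf11-DNL, where PCF11 was at -0.01 and -0.02. The mean of the 7 other members stayed between -0.03 and 0.01 in all 6 cultures and was matched within 0.017 by CST26, MIP1, MMS1, AGE2 and PSD2. This mean joins members with opposite changes, such as HRP1 at 0.12 and RNA14 at -0.15 in Pcf11-13. Any gene that hardly changed would match a target so near 0, so these matches show no shared pattern.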

How the data were processed

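The deposited values are read coverage per gene, a signal with 1 column per library and no scaling to depth, per the file headers and the values. Per the submitters' processing notes, Trimmomatic 0.38, BWA 0.7.17-r1188, deepTools 3.1.2 and sacCer3 were used, with no role or order given; the way reads became a value per gene is not given in the sources used here. Read numbers per gene are unknown, so no counting interval is given. Gene positions and symbols come from the RefSeq R64 gene table, which matched 5976 of 6650 genes, all 8 members included; strands follow the systematic names. Libraries do not separate strands.

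Coverage of each assay was scaled by trimmed-mean factors computed without weights (trimming 30 percent by log ratio and 5 percent by mean level), a pseudocount of 1 was added, and only genes that reached a coverage of 10 in 2 or more libraries were tested. limma 3.58.1 (R 4.3.3, mean-variance trend) was fitted over all genes and all 6 libraries of an assay, or the 6 log2 ratios of Pol II to the input of the same culture, which the labels' protocols describe as an aliquot of the same sample. Adjusted p-values are limma's with Benjamini-Hochberg adjustment over all genes, called under 0.05; intervals are limma's unadjusted 95 percent intervals. Fold changes are on the log2(value + 1) scale. The procedure was tested on simulated data in which all genes had the same spread and no library was narrow, so that test did not cover these features of the real libraries. The planned rule named all members, their nearest neighbours, called genes of the pathway lists, the most similar genes, LEU2 and TRP1. Members and lists were chosen with earlier results of these data known. Replicate numbers did not pair the genotypes.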

Additional observations from a re-analysis of the deposited data

How the results depend on the processing

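PCF11 kept its direction and its call for Pol II and for Pol II over input, in Pcf11-13 against WT and between the mutants, under all alternatives run, with log2 changes against WT of 2.23 to 2.39 and 1.64 to 1.87 when 1 library or culture was left out. Its input rise was 0.52 and not called without WT replicate 1 and Pcf11-DNL replicate 2 together. These replicates were narrow in Pol II only. Their input SDs, 0.361 and 0.36, lay within those of the other input libraries (0.357 to 0.371). The uncalled PCF11 change in Pcf11-DNL turned sign with 1 library left out, from -0.09 to 0.03 in Pol II, -0.05 to 0.02 in input and -0.04 to 0.01 in their ratio, and was 0.01 in the ratio after quantile normalization. Uncalled Pol II changes of other members also turned sign: in Pcf11-13 RNA15 (0.04) and RTT103 (0.07) without both narrow libraries and RAI1 (-0.01) after quantile normalization, in Pcf11-DNL CLP1 (-0.01) after quantile normalization and RAI1 (-0.03) without both narrow libraries. With 1 library left out the ranges in Pcf11-13 were -0.13 to 0.03 (RNA15), -0.00 to 0.12 (RAT1), -0.01 to 0.06 (RAI1) and -0.16 to 0.06 (RTT103), and in Pcf11-DNL -0.06 to 0.11 (CLP1), -0.06 to 0.09 (RNA15), -0.04 to 0.09 (RAT1), -0.03 to 0.04 (RAI1) and -0.05 to 0.16 (RTT103). PCF11 was the only member called between the mutants in Pol II, except that HRP1 was added without either WT library. Those fits have 1 WT library, and calls over all genes moved widely when 1 library was left out. Not called without WT replicate 1 and Pcf11-DNL replicate 2 together were also the input changes of MPE1 (-0.45) and LEU2 (0.42).

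Counts over all genes moved more, and the cause was not tested. For Pol II they were 75 (Pcf11-13), 1 (Pcf11-DNL) and 11 (between the mutants), and for Pol II over input 139, 2 and 13, in the same order. With no filter on low coverage they were 32, 0 and 5, and 90, 1 and 7. After quantile normalization they were 278, 1 and 5, and 217, 1 and 1, with 10 and 10 for input against 17 and 17. Without both narrow libraries they were 618, 105 and 404, and 916, 353 and 698, with 9 for input in Pcf11-13. With 1 library left out they ranged from 8 to 1216, 0 to 401 and 1 to 679, and from 31 to 810, 2 to 176 and 2 to 456. With 12 libraries in 1 fit the ratio gave 76, 1 and 11. Equal replicate numbers did not deviate together across genotypes in Pol II, so the numbers are no pairing. The r was -0.09 for WT with Pcf11-13 and -0.07 for Pcf11-13 with Pcf11-DNL. For WT with Pcf11-DNL it was -0.89, a strong deviation in opposite directions that the main fit does not model. The replicate block gave 107, 3 and 20, and 215, 2 and 74. With the numbers of Pcf11-DNL crossed, a choice made after seeing the data, the replicate block gave 206, 1 and 15, and 298, 2 and 187. No other alternative changed which members were called.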
